A study of Mus musculus with 36 samples.

Results

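The 9 genes described here encode parts of the first epithelium that a mouse embryo makes, the trophectoderm. They are Sfn, which encodes 14-3-3 sigma, the keratin genes Krt8, Krt18 and Krt19, the claudin genes Cldn4, Cldn6 and Cldn7, the desmoplakin gene Dsp and the E-cadherin gene Cdh1. The set was chosen by a measured value, since Sfn was picked for its lower counts in morulae sired by males on a high-fat diet, and the other genes were added as its epithelial companions. All 9 were found by symbol among the 55487 genes of the morula count table, and 8 of them passed the filter on low counts that left 13447 genes to test, Krt19 being the exception. Since the contrast between the diets in morula chose them, their differences there are given as a description with no test.

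The morulae came from in vitro fertilization of oocytes from unexposed wild-type females with cauda sperm of young adult C57BL/6 wild-type males (C57BL/6N in the methods of the study), which had eaten a high-fat diet (HFD, 60% of kcal from fat) or a low-fat diet (LFD, 10%) for 2 weeks, and they were picked after 72 h of culture. Only the fathers differed in diet, and the number of embryos behind a library is not given in the sources used here. Cauda spermatozoa of males of the same strain on the same 2 diets, purified by swim-up, form the second set of libraries. Each set holds 3 HFD and 3 LFD libraries, named here by the short codes of their columns (MH5, MH6, MH7 and ML1, ML2, ML3 for morula, h1000, h3000, h4000 and l1000, l2000, l4000 for sperm, with H or h for HFD). For 3 of the 6 morula samples a free-text label names the other diet than the title and the treatment label, and title and treatment were followed. Nothing in the labels says that the libraries of a diet came from separate fertilizations or males, so p-values measure the spread between these libraries, which may be technical.

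Counts assigned to genes amounted to 11471251 to 12153141 per morula library and 2560219 to 4062321 per sperm library, so that a count of 0 allows up to 0.262 CPM (counts scaled to one common library total) in morula and up to 1.17 CPM in sperm, for counting error only. The morula libraries carried the 6 embryo markers Pou5f1, Nanog, Cdx2, Klf17, Dppa3 and Tdgf1 at 2859 to 3607 CPM in sum, and 5 of these 6 were at 0 in every sperm library. The sperm libraries carried the 6 sperm markers Prm1, Prm2, Tnp2, Odf1, Smcp and Akap4 at 4268 to 10796 CPM in sum, against at most 0.775 CPM in morula.

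At the morula stage the blastomeres flatten against each other, the outer cells gain an apical surface, and junctions seal them into the epithelium that will pump fluid into the blastocoel and later form the placenta. E-cadherin holds the cells together at adherens junctions, claudins form the strands of tight junctions that limit leakage between cells, and desmoplakin ties the keratin filaments of type II (Krt8) and type I (Krt18, Krt19) to desmosomes. The 14-3-3 proteins bind phosphorylated partners and hold them in place, and 14-3-3 sigma, also called stratifin, is the family member typical of epithelia and a known target of p53.

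The genes lie apart in the genome, with one close pair. On GRCm38, Sfn is a single-exon gene of 1613 bases on chromosome 4 (133600556 to 133602168, minus strand) and Cldn4 a single-exon gene on chromosome 5 (134945119 to 134946934, minus strand). Krt8 (chromosome 15, 101996698 to 102004482, minus strand) and Krt18 (chromosome 15, 102028180 to 102032027, plus strand) are neighbours that point away from each other. Krt19 (100140810 to 100148665, minus strand) and Cldn7 (69964779 to 69967885, plus strand) are on chromosome 11, Cldn6 (23679249 to 23682446, plus strand) on chromosome 17, Dsp (38151294 to 38198577, plus strand, up to 24 exons) on chromosome 13 and Cdh1 (106603351 to 106670246, plus strand, up to 17 exons) on chromosome 8. Some reads could match more than 1 gene, and how many was not measured. The processed pseudogene Gm7850 matches Sfn over 712 bases at 97.5% identity and held 26 counts over the 6 morula libraries, and Krt8-ps matches Krt8 over 941 bases at 98.6% and held 6. On the opposite strand Gm10129 overlaps Dsp exons with 1 count and Gm36026 overlaps a Krt8 exon with 0, and whether the authors counted by strand is not given in the sources used here.

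The upstream sequence of Sfn is shown because Sfn is the gene on which the set was chosen. RefSeq gives it as the 250 bases before the annotated start, chr4:133602169-133602418, minus strand, with an E-box in capitals.
Sfn: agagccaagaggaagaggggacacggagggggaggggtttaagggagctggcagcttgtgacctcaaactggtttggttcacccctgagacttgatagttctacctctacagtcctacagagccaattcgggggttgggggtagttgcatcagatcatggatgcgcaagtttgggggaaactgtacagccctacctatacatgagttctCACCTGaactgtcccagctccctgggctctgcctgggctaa

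The E-box CACCTG is the element to which repressors of epithelial genes such as Snail bind, and it was searched on both strands (CACCTG or CAGGTG) in the RefSeq windows of 300 bases, 250 before and 50 after each start, which 7 of the 9 genes have. It was present in a window of all 7 (Cldn7 has 2 windows, of which 1 holds it), and in 20.2% of the 32851 windows of all genes. Here and below the counts are of genes, with any window of a gene allowed, while the shares are of windows, so the units differ. The first match is shown for 6 of these genes with 12 bases on either side and the match in capitals, in the direction of the gene, on GRCm38.
Sfn (chr4:133602192-133602221, minus): tacatgagttctCACCTGaactgtcccagc
Krt18 (chr15:102027990-102028019, plus): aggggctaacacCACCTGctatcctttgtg
Cldn4 (chr5:134946931-134946960, minus): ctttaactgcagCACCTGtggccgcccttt
Cldn6 (chr17:23679260-23679289, plus): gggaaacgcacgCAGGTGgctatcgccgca
Cldn7 (chr11:69965312-69965341, plus): tttcttcctcttCACCTGgacgaggagggg
Dsp (chr13:38151285-38151314, plus): gaagaagccgacCAGGTGtggcctgggcgc

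The window of Cldn6 and the downstream window of Cldn7 hold the cAMP response element TGACGTCA, which 1.79% of all windows hold on either strand. The upstream window of Cldn7 does not hold it. The element begins 40 bases before the RefSeq start of Cldn6 and 38 before the downstream RefSeq start of Cldn7. For both genes, this start and the element lie inside the gene span given above.
Cldn6 (chr17:23679314-23679343, plus): aggtggtccagTGACGTCAttgagacttta
Cldn7 (chr11:69965372-69965401, plus): tgtcccttcagTGACGTCAggtcactcgac
Of the other elements searched on both strands, the TEAD site GGAATG was in windows of 2 of the 7 genes (14.7% of all windows), the AP-1 site TGACTCA in 1 (5.2%) and the TATA box TATAAA in 1 (13.6%). The elements were picked after the sequences had been seen, the matches are a description of letters, and binding was not measured.

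The set spanned a wide range of levels in morula. Per length, in RPKM (CPM divided by the exon length of the gene in kilobases), Sfn averaged 605 ± 136 (SD, n = 6), which was rank 31 among the 13447 tested genes. Cdh1 followed at 75.2 RPKM, Cldn6 at 44.4, Krt18 at 24.7 and Cldn4 at 14.7, whereas Cldn7 (8.38), Krt8 (7.80) and Dsp (3.03) were low and Krt19 was at 0.108. Sfn stood above Cdh1 in every library, by 6.59 to 11.3 times per length. The levels of Krt8 and Cldn7 lie within the spread of their libraries. Krt18 exceeded its filament partner Krt8 by 3.23 ± 0.60 times per length (SD, n = 6), and Cldn6 exceeded Cldn7 by 5.24 ± 0.90 times and Cldn4 by 3.23 ± 1.22 times.

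Sfn was lower in morulae of HFD fathers, which is the value that chose it. On the scale of CPM adjusted by TMM (the trimmed mean of M values, edgeR's scaling between libraries), it was at 849 in MH5, 893 in MH6 and 701 in MH7, and at 1321 in ML1, 1129 in ML2 and 966 in ML3. Every HFD library lay below every LFD library, with means of 814 ± 100 against 1139 ± 177 (SD, n = 3 each). The fitted log2 fold change of HFD over LFD was -0.48 (SE 0.11), which is 1.40-fold lower, and 8.14% of all tested genes had a lower log2 fold change. Leaving out each library in turn gave -0.59 (without ML3) to -0.37 (without ML1).

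**Figure D1:**
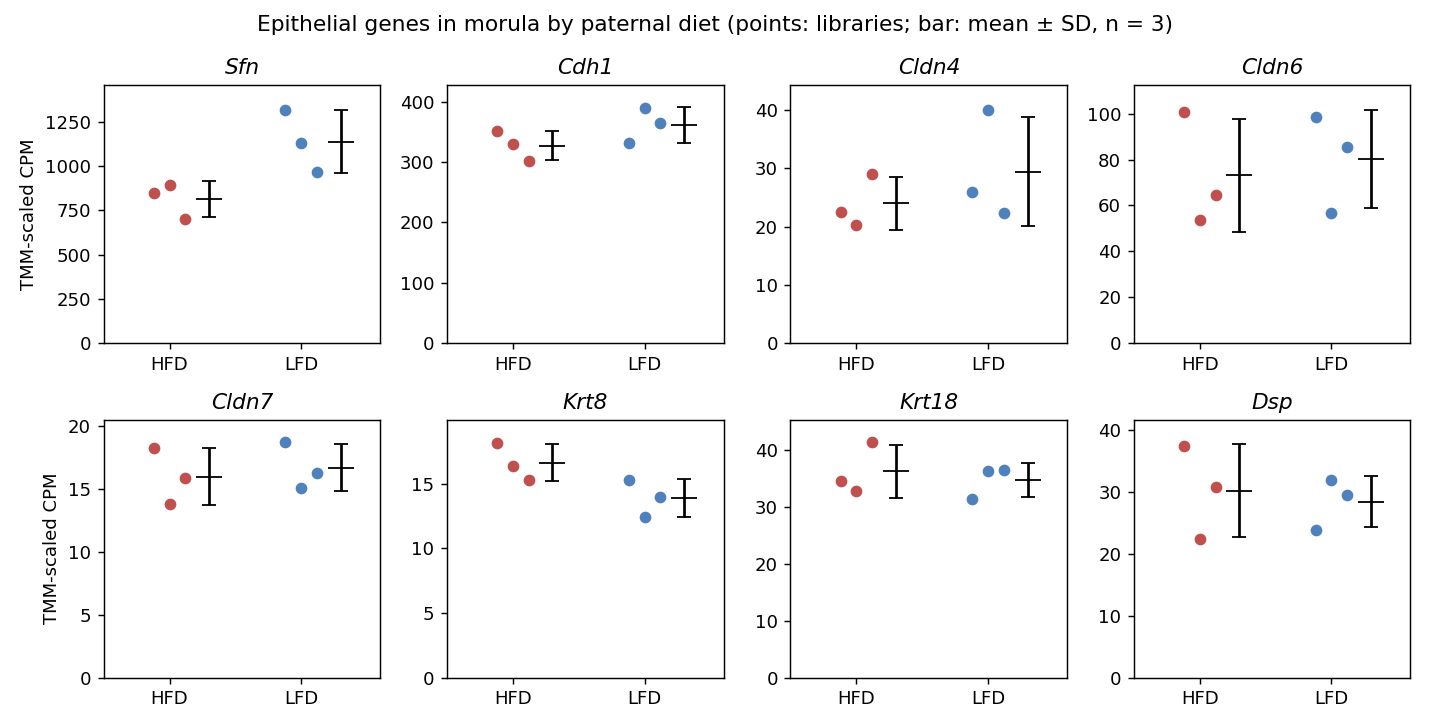
TMM-scaled CPM of the 8 tested epithelial genes in each morula library (points), with the mean ± SD of 3 libraries beside them, HFD in red and LFD in blue, each axis starting at 0. Sfn libraries lie between 701 and 893 on HFD and between 966 and 1321 on LFD, whereas the diets overlap for all others except Krt8.

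Per length, in RPKM, Sfn had the highest mean level of its family in morula, although Ywhae was above it in the HFD libraries MH5 and MH7. In CPM, which does not divide by length, Ywhae (1401) and Ywhaz (1058) averaged above Sfn (976). Sfn made up 34.6% of the summed RPKM of the 7 family genes, next to 31.7% for Ywhae (14-3-3 epsilon) and 14.9% for Ywhaz (14-3-3 zeta). The share of Sfn was 27.8% to 34.0% on HFD and 34.0% to 42.0% on LFD, so that the highest HFD library (34.01%) and the lowest LFD library (34.05%) almost met. No gene of the family, Sfn included, passed edgeR's test. The 6 other family genes had log2 fold changes from -0.13 (Ywhah, SE 0.09) to 0.07 (Ywhae, SE 0.07) and a median of -0.04. The diets did not overlap for Ywhah, lower on HFD as 6.18% of all tested genes were, and for Ywhae, higher as 5.94% were.

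**Figure D2:**
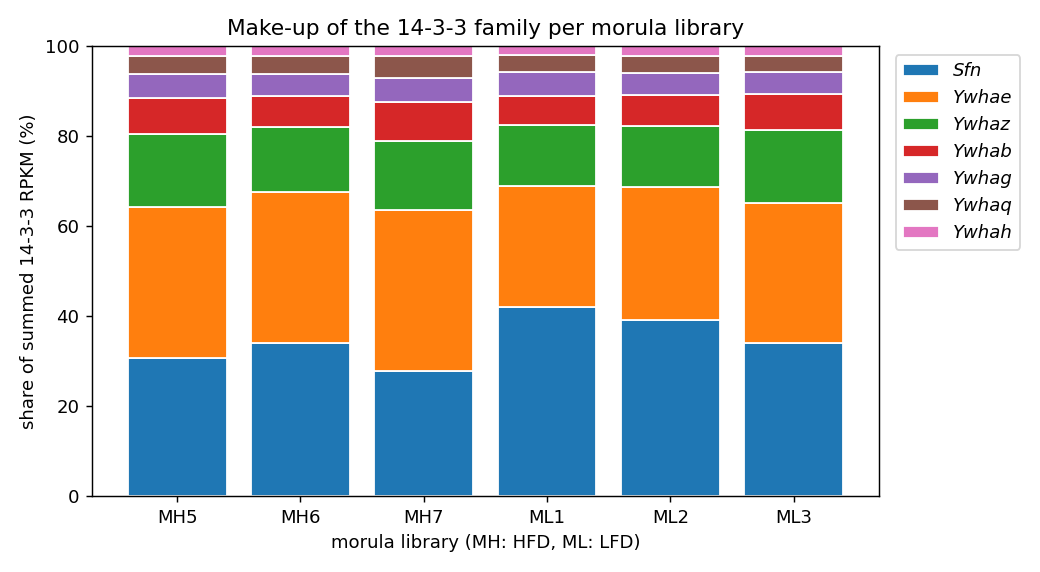
Share of each 14-3-3 gene in the summed RPKM of the family, in percent, for each morula library (MH on HFD, ML on LFD). Sfn, at the bottom of each bar, ranges from 27.8% in MH7 to 42.0% in ML1 and Ywhae above it from 26.8% to 35.7%.

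The keratin genes with enough counts had positive log2 fold changes. Krt8 was at 18.2, 16.4 and 15.3 TMM-scaled CPM in MH5, MH6 and MH7 and at 15.3, 12.4 and 13.98 in ML1, ML2 and ML3. The HFD libraries were thus all above the LFD libraries, but MH7 (15.314) and ML1 (15.309) differed by less than the spread within either diet. The log2 fold change was 0.26 (SE 0.19), and 0.18 to 0.33 with 1 library left out. Krt18, whose product pairs with that of Krt8, was at 34.5, 32.8 and 41.5 on HFD and 31.4, 36.4 and 36.5 on LFD, and the diets overlapped. Its log2 fold change of 0.06 (SE 0.15) turned to -0.049 without MH7. Krt19 was all but absent, with 4, 7 and 0 counts in MH5, MH6 and MH7 and 0, 3 and 0 in ML1, ML2 and ML3, which the filter removed.

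The 3 claudins overlapped between the diets. Cldn4 was at 22.6, 20.3 and 29.1 TMM-scaled CPM in MH5, MH6 and MH7 and at 25.98, 40.1 and 22.4 in ML1, ML2 and ML3, where ML2 stands above the rest. Its log2 fold change was -0.29 (SE 0.22) with all libraries and -0.01 without ML2. Cldn6, the most abundant claudin of the set, was at 101, 53.8 and 64.4 on HFD and 98.5, 56.7 and 85.4 on LFD, with a log2 fold change of -0.14 (SE 0.22) that ran from -0.44 without MH5 to 0.038 without MH6. Cldn7 was at 18.3, 13.8 and 15.9 on HFD and 18.7, 15.1 and 16.3 on LFD, with a log2 fold change of -0.06 (SE 0.19) that was 0.027 without MH6. For both, MH5 and ML1 were the highest libraries and MH6 and ML2 the lowest, so the pair varied alike within each diet, with Pearson's r of 0.95 in log2 CPM over the 6 libraries, the highest of the 36 pairs of these genes. The points share the libraries and their scaling.

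The junction genes Cdh1 and Dsp overlapped between the diets. Cdh1 was at 351, 329.9 and 302 TMM-scaled CPM in MH5, MH6 and MH7 and at 331, 390.1 and 365 in ML1, ML2 and ML3, so that the diets overlapped through ML1. It had the smallest spread of the set over the 6 libraries, with a coefficient of variation of 7.05% in CPM against 22.5% for Sfn, and its log2 fold change was -0.14 (SE 0.09). Dsp was at 37.5, 22.4 and 30.9 on HFD and 23.9, 31.9 and 29.5 on LFD, with a log2 fold change of 0.09 (SE 0.19) that ran from -0.10 without MH5 to 0.26 without MH6.

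Counted together, 5 of the 8 tested genes were lower and 3 higher on HFD, with a median log2 fold change of -0.10 beside 0.01 over all 13447 tested genes, of which 47.8% were lower. The quasi-likelihood test of edgeR called 0% of all tested genes (0 genes) at adjusted p under 0.05, with 858 at an unadjusted p under 0.05, while DESeq2 called 9 (2 higher, 7 lower) and limma-voom 0 with 900 unadjusted. None of the 8 was called by edgeR. The diets did not overlap for Sfn among the genes lower on HFD, as for 6.18% of all tested genes, and for Krt8 among those higher, as for 5.94%. Because the contrast chose the set, nothing is read from these counts.

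The partners of these genes were followed in lists of junction, polarity and lineage genes, and no listed gene passed edgeR's test in morula. Of 13 tested tight junction partners, 9 were lower and 4 higher on HFD, with a median log2 fold change of -0.11, from Crb3 at -0.29 (SE 0.21), which encodes an apical polarity protein, to Cldn9 at 0.40 (SE 0.37). Tjp1, the scaffold ZO-1, was at 49.9 RPKM with a log2 fold change of -0.11 (SE 0.09). The 6 tested desmosome partners had a median of 0.03, from Pkp2 (plakophilin 2) at -0.06 (SE 0.17) to Evpl (envoplakin) at 0.90 (SE 0.67), which had only 73 counts in all. Of the other keratins only Krt7 passed the filter, with 154 counts and a log2 fold change of 0.40 (SE 0.68).

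Genes of the adherens junction had a median of 0.02 over 10 tested, from Nectin2 at -0.34 (SE 0.21) to Ctnnb1, which encodes beta-catenin, at 0.15 (SE 0.12). The 13 tested trophectoderm regulators had a median of -0.07, between Id2 at -0.75 (SE 0.63, 96 counts) and Grhl1 at 0.51 (SE 0.55, 159 counts). Cdx2, the transcription factor that defines the lineage, was at -0.10 (SE 0.31), and Gata3 at -0.18 (SE 0.13). Among 6 tested transport genes of the cavity-forming epithelium the median was -0.13, with the aquaporin gene Aqp3 lowest at -0.55 (SE 0.18, adjusted p = 0.687, edgeR).

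The apical polarity genes (11 tested) had a median of -0.03, from Pard6b at -0.35 (SE 0.12) to the ezrin gene Ezr at 0.23 (SE 0.23), and the diets did not overlap for Pard6b and Prkci, both lower on HFD. The 14 genes of the Hippo pathway, which reads cell position in the morula, had a median of 0.04, with Lats1 at -0.39 (SE 0.26) and Sav1 at 0.24 (SE 0.25) at the ends. The 15 tested genes of the p53 list, to which Sfn itself would also belong, had a median of 0.04, from Bbc3 at -0.57 (SE 0.57) to Cdkn1a at 0.21 (SE 0.11), the cell cycle inhibitor p21. The 12 tested genes of the inner cell mass had a median of -0.10, from Fgf4 at -0.39 (SE 0.25) to Spic at 0.21 (SE 0.11).

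The genes whose log2 CPM ran most like that of Sfn over the 6 morula libraries were Bcl2l1 (r = 1.00 to 2 decimals), which encodes the survival protein Bcl-xL, then Gm5096 (0.99), Aamp (0.99), Ube4b (0.99) and Gm6722 (0.99). Of the 13446 genes compared 174 had an r above 0.9, so such a likeness was shared by many genes over 6 libraries. All 5 named were lower on HFD without overlap, as were 6.18% of all tested genes. A gene that runs so closely with Sfn separates the diets much as Sfn does, so nothing is read from this. No other gene of the set had an r above 0.9. Cdh1 came nearest (r = 0.50, rank 2280), the claudins had r from 0.25 to 0.29, and the keratins and Dsp had negative r, down to -0.69 for Krt18.

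Cumulus, granulosa and sperm markers were low in the morula libraries, and the p-values given here are of TMM-scaled sums. The summed level of 12 cumulus and granulosa genes was 3.29 to 4.74 CPM on HFD and 3.29 to 6.02 on LFD (exact two-sided permutation p = 0.6), with Fshr, Cyp11a1, Cyp19a1, Inha, Has2 and Foxl2 at 0 in every library. The 8 sperm markers summed to 0.741 to 1.55 CPM on HFD and 0.165 to 2.70 on LFD (exact two-sided permutation p = 0.8). The 12 maternal oocyte genes summed to 34.7 to 38.1 CPM on HFD and 38.1 to 44.3 on LFD, lower in each HFD library than in any LFD library though by only 38.08 against 38.10 CPM at the nearest (exact two-sided permutation p = 0.1, the smallest that 3 against 3 libraries allow), and the diets did not overlap for Bmp15 and Npm2, both lower on HFD, 2 of the 9 tested genes of the list against 6.18% of all tested genes, and both are named after their values were seen. This smallest p was not particular to the oocyte genes. Sums of the tight junction partners and of the apical polarity genes, both lower on HFD, had it too (exact two-sided permutation p = 0.1). So had sums of fat and of muscle markers, both higher on HFD. The 14 inner cell mass genes summed to 1050 to 1101 CPM on HFD and 1046 to 1123 on LFD (exact two-sided permutation p = 0.8), with a mean difference of -8.90 in TMM-scaled CPM and 5.31 in CPM. The part of the oocyte genes in the difference of Sfn was not tested, and in these bulk libraries fewer cells of a type and less RNA per cell cannot be told apart.

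In sperm the set had another make-up. Sfn, at 727 to 1337 CPM in morula, had 2, 5 and 1 counts in h1000, h3000 and h4000 and 6, 11 and 14 in l1000, l2000 and l4000, which is 0.272 to 5.47 CPM. Cldn6, at 55.1 to 99.7 CPM in morula, had no count in any sperm library, which allows up to 1.17 CPM. Krt19 went the other way, with 41.0 to 595 CPM in sperm against at most 0.603 in morula.

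Cdh1 (313 to 384 CPM in morula, 13.7 to 292 in sperm) and Cldn4 (20.8 to 39.4 against 2.67 to 19.996) were also higher in every morula library than in any sperm library, whereas Krt8, Krt18, Cldn7 and Dsp overlapped. The 2 tables were made from paired and single reads, so these levels are set side by side with no test. With CPM computed on counts outside mtDNA, 2 of the 4 genes (Sfn and Cldn6) were still higher in every morula library.

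**Figure D3:**
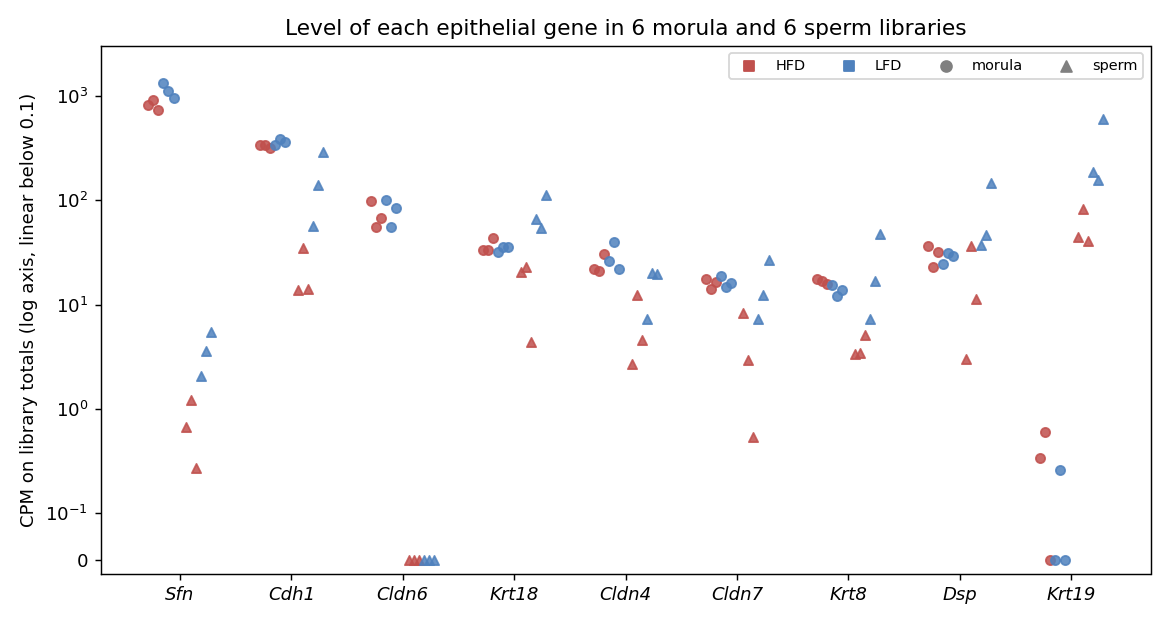
CPM on library totals of each epithelial gene in 6 morula libraries (circles) and 6 sperm libraries (triangles), HFD in red and LFD in blue, on a log axis that is linear below 0.1. Sfn lies at 727 to 1337 CPM in morula and at 0.272 to 5.47 in sperm, and Krt19 at 0 to 0.603 in morula and at 41.0 to 595 in sperm.

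The contrast between the diets in sperm did not choose the set and can be tested. With TMM scaling 6 of the 7 genes tested (Sfn and Cldn6 had too few counts) had negative log2 fold changes and 1, Cldn4, a positive one, with a median of -0.58 beside -0.07 over all 8643 genes tested. None was called by edgeR, which called 0% of all tested genes (0 genes, 1122 at an unadjusted p under 0.05, while DESeq2 called 286 and limma-voom 0 with 1228 unadjusted). The diets overlapped for each of the 7. Of all tested genes, 12.3% were lower and 8.12% higher on HFD without overlap.

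Cdh1 had the lowest log2 fold change, -1.16 (SE 0.52, edgeR adjusted p = 0.358). It was at 26.5, 48.2 and 32.0 TMM-scaled CPM in h1000, h3000 and h4000 and at 37.3, 88.8 and 113 in l1000, l2000 and l4000, where only l1000 fell into the HFD range. Krt19 was at 86.5, 114 and 92.8 on HFD and 123, 101 and 231 on LFD, with l4000 far above the rest. Its log2 fold change was -0.63 (SE 0.47, edgeR adjusted p = 0.620) and was -0.18 without l4000.

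Krt18 was at 39.4, 31.6 and 9.83 TMM-scaled CPM in h1000, h3000 and h4000 and at 43.6, 34.7 and 43.4 in l1000, l2000 and l4000, with h4000 alone far below the rest. Its log2 fold change of -0.59 (SE 0.54) ran from -0.96 without h1000 to -0.20 without h4000. Krt8 was at 6.46, 4.82 and 11.7 on HFD and 4.75, 10.7 and 18.5 on LFD (-0.58, SE 0.74), which was -0.0020 without l4000. Dsp ranged from 5.81 to 50.9 on HFD and from 24.6 to 56.0 on LFD (-0.41, SE 0.65). Its log2 fold change was 0.057 without h1000, 0.051 without l4000 and -1.24 without h3000. Cldn7 ranged from 1.23 to 16.1 on HFD and from 4.75 to 10.4 on LFD (-0.13, SE 0.89), so the HFD libraries spanned the LFD ones. Cldn4, at 0.40 (SE 0.72), turned to -0.12 without h3000. Cldn4 itself was at 5.17, 17.2 and 10.4 on HFD and 4.75, 12.8 and 7.57 on LFD. The standard errors of the 6 genes tested in both sets were 3.34 to 5.68 times those in morula.

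The partner lists were counted in sperm as well, and no listed gene passed edgeR's test there with TMM scaling. Of 16 tested tight junction partners, 13 were lower and 3 higher on HFD (median log2 fold change -0.67), and the diets did not overlap for 5 of the lower and 1 of the higher, beside the 12.3% and 8.12% of all tested genes given above. The 6 tested desmosome partners had a median of -0.48, and the 6 other 14-3-3 genes, of which 5 were lower, one of -0.50. The 8 tested adherens junction genes were even, with 4 on each side and a median of 0.05.

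The sperm values depended on the scaling. Genes encoded in mtDNA took 78.1% to 84.3% of the counts on HFD and 43.5% to 64.7% on LFD, and TMM factors were 0.442 to 0.716 on HFD and 1.52 to 2.58 on LFD. On library totals all 8643 genes were shifted to a median of -1.82 on the log2 scale. On that scale Cdh1 was at -2.96 (edgeR adjusted p = 0.0131), Krt19 at -2.49 (0.0135), Krt18 at -2.29 (0.0207), Krt8 at -2.57 (0.0269) and Dsp at -2.16 (0.0375). These 5 of 7 tested genes were called lower, as were 37.8% of all tested genes, and their diets did not overlap, as for 57.2% of all tested genes. Relative to the shift of all genes, the 5 lay between -1.14 (Cdh1) and -0.34 (Dsp). The tested genes that were not called lay at -0.16 (Cldn7) and 0.58 (Cldn4).

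**Figure D4:**
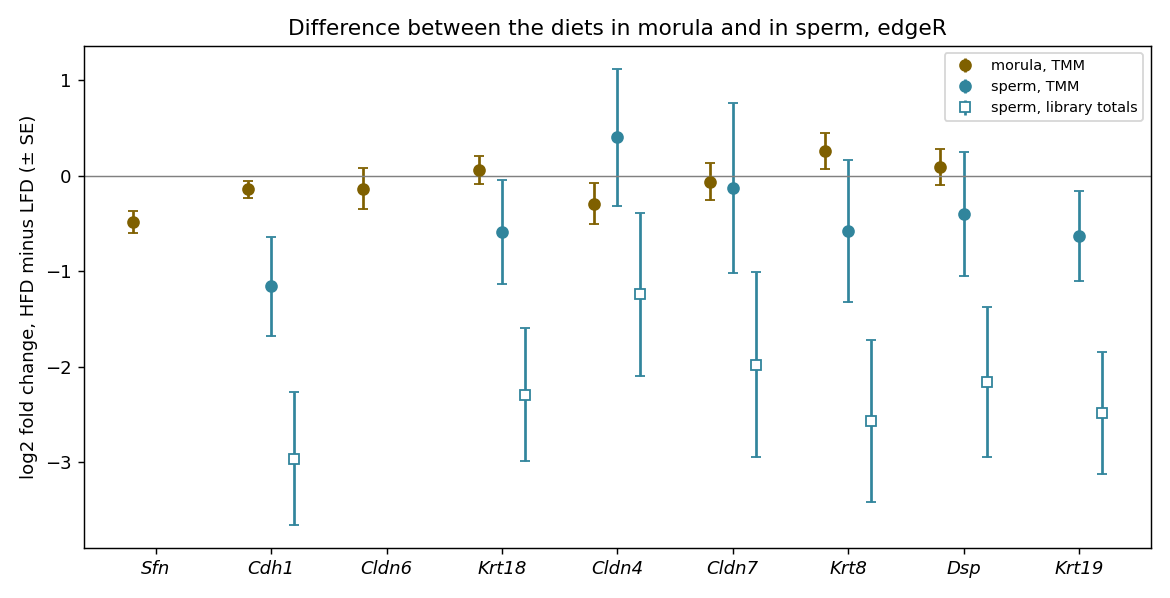
Log2 fold change of HFD over LFD (± SE, edgeR, 3 against 3 libraries) for each epithelial gene in morula and in sperm with TMM scaling (filled) and in sperm on library totals (open squares); no point is drawn for a gene that failed the count filter. Morula values lie between -0.48 (Sfn) and 0.26 (Krt8), and the sperm values move down by the shift of all genes when library totals are used.

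Epididymal markers moved with these levels in sperm on the scale of library totals, and so did other lists. Tight junction partners summed to 1066 CPM in l4000 (90.8 to 467 in the other sperm libraries), and the 6 other 14-3-3 genes to 1218 (106 to 945). The cumulus and granulosa genes summed to 1782 CPM in l4000 (175 to 806 in the others). The inner cell mass, oocyte, testis and sperm lists were not highest in l4000. The epididymal epithelium, which lines the duct where cauda sperm are stored, is itself rich in keratins and E-cadherin. Its 10 listed genes, all with counts in sperm, summed to 2007 to 3752 CPM on HFD and to 4086, 11503 and 33127 CPM in l1000, l2000 and l4000. TMM-scaled, the sum was 4538 to 5242 on HFD and 2691, 7382 and 12833 in these LFD libraries, so that l1000 was then below every HFD library. Crisp1 (6645 CPM on average), Spink8 (2432) and Wfdc10 (343) carried most of it, while the lipocalin genes Lcn5 (0.367) and Lcn8 (0.219) of the upper duct were near 0. Library l4000, with the highest epididymal sum, also had the highest CPM of Krt19 (595), Cdh1 (292), Krt18 (112), Dsp (145), Krt8 (47.7), Cldn7 (27.0) and Sfn (5.47), whereas Cldn4 was highest in l2000 (19.996 against 19.53). This library also had the lowest mtDNA share (43.5%) and the largest TMM factor (2.58). TMM-scaled, it stayed highest for Krt19, Cdh1, Dsp and Krt8. It was then below l1000 for Krt18 (43.4 against 43.6), h1000 for Cldn7 (10.4 against 16.1) and l2000 for Sfn (2.12 against 2.31). Sperm markers summed to 5652 to 10946 CPM on HFD and 4357 to 10135 on LFD, lowest in l4000. TMM-scaled, they summed to 7897 to 24745 on HFD and 1688 to 6674 on LFD, with no overlap, and all 8 had positive log2 fold changes (median 1.28), none of them called. The 9 somatic testis genes summed to 458 CPM in h3000 and to 4.89 to 98.0 CPM in the other libraries. The part of epididymal, testis and sperm RNA in the differences between the sperm libraries was not tested. In morula 7 of the 10 epididymal genes (Lcn5, Lcn8, Cst11, Spink8, Adam28, Wfdc10 and Crisp1) were at 0 in every library, and the list summed to 91.7 to 126 CPM, nearly all from the general epithelial gene Epcam (111 CPM on average), with 29 counts for Cdh16 and 23 for Rnase10.

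**Figure D5:**
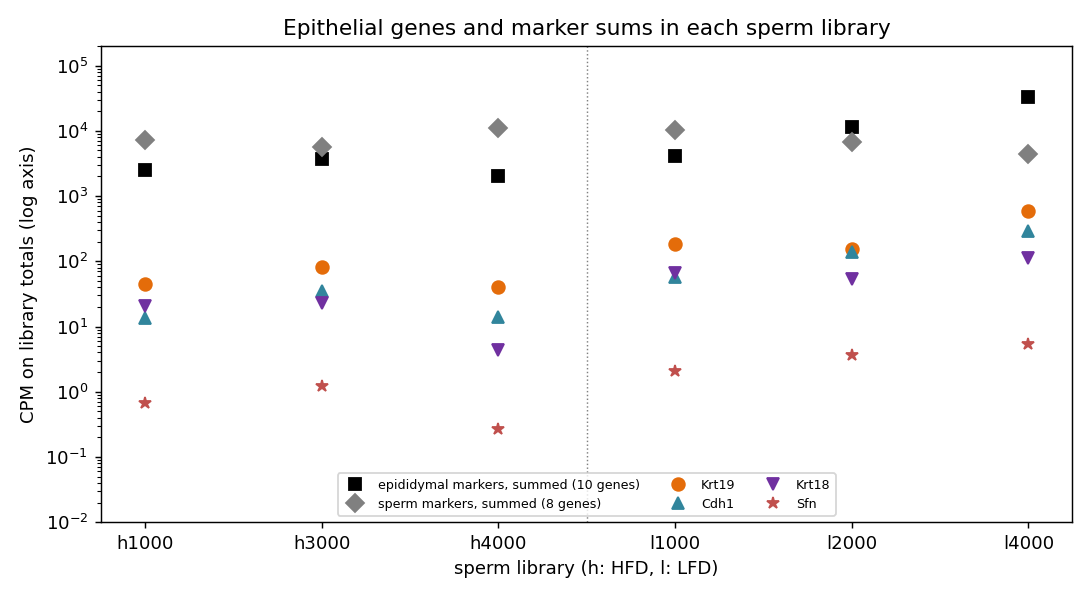
CPM on library totals (log axis) in each sperm library of the summed epididymal (black squares) and sperm markers (grey diamonds) and of Krt19, Cdh1, Krt18 and Sfn. The epididymal sum rises to 33127 CPM in l4000, where Krt19 (595), Cdh1 (292) and Sfn (5.47) are also highest.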

How the data were processed

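Count tables of morulae and of cauda spermatozoa were used, each with 3 HFD and 3 LFD libraries. Raw counts per gene, with no normalization, were deposited by the authors, who used BBDuk for trimming, STAR for alignment (GRCm38) and featureCounts for counting. Tool versions and strandedness are not given in the sources used here. A further 24 columns of per-sample values in 4 tables (round spermatids, liver, gastrocnemius and eWAT) name neither a sample nor a group and are not used here. The diet of a library was read from the letters of its column name with the sample titles and treatment labels.

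The morula and sperm sets went into separate fits of edgeR 4.0.16 under R 4.3.3 (filterByExpr, minimum count 10, TMM, quasi-likelihood test of HFD over LFD, two-sided, Benjamini-Hochberg over all tested genes, threshold 0.05). No block was used, since neither labels nor methods pair the libraries. In the sperm columns, h1000 and l1000, and h4000 and l4000, share a number, and their deviations correlated by 0.10 and -0.14. With 3 libraries per diet this cannot decide whether the numbers pair the libraries. RPKM used the deposited gene lengths and library totals. Log2 CPM for correlations used a prior count of 2. Alternatives were DESeq2 1.42.0, limma-voom (limma 3.58.1), other scalings, no filter and leaving out each library. The scripts were tested on simulated data. No pair of libraries of a diet agreed within sampling noise (chi-square per degree of freedom at least 8.19 in morula and 18.9 in sperm). Copies were sought with BLAST 2.17.0 (at least 95% identity over 75 bases) in GENCODE transcripts, and promoter windows are RefSeq's on GRCm38.p6. Plots used Python 3.11.15 and matplotlib 3.10.9.

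The 9 genes and all lists were chosen with earlier results of these data known. Named from each list are genes past the threshold in morula or else the highest and lowest log2 fold change among tested genes; Tjp1, Cdx2, Gata3, Prkci, Bmp15 and Npm2 and the single sperm markers were named after their values were seen. A list gene and a sequence that these rules would give are not reported here. Named for likeness to Sfn are the 5 genes with the highest Pearson's r.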

Additional observations from a re-analysis of the deposited data

How the results depend on the processing

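In morula, edgeR called no gene at adjusted p under 0.1, with DESeq2 size factors, library totals or mtDNA-encoded genes left out, nor did limma-voom, whereas DESeq2 called 9 genes, edgeR without a filter on low counts 63, and edgeR with each library left out 0 to 2. Sfn was among the genes called by DESeq2 and among those called without a filter, which carries no weight for a gene chosen on this contrast. The cause of these differences was not tested. Sfn, Krt8, Cldn4 and Cdh1 kept their direction in morula under every alternative run, while the log2 fold change with 1 library left out ran from -0.049 to 0.13 for Krt18, from -0.44 to 0.038 for Cldn6, from -0.18 to 0.027 for Cldn7 and from -0.10 to 0.26 for Dsp. In sperm, edgeR called 3266 genes on library totals, 41 without a filter and 286 were called by DESeq2. Cldn4 turned to -1.24 on library totals, and with 1 library left out ran from -0.12 to 0.83, Cldn7 from -1.47 to 0.35 and Dsp from -1.24 to 0.057. A replicate block on the numbers that sperm libraries share gave 2 called genes, and these numbers are not known to pair the libraries. No paired analysis was possible because the morula columns share no numbers between the diets. Of the 4 genes higher in every morula than in any sperm library, 2 were so with CPM on counts outside mtDNA, and without l4000 they were 5. The alternatives for marker sums were chosen after seeing the data. The summed inner cell mass genes, lower by 8.90 TMM-scaled CPM on HFD, were 5.31 CPM higher on library totals and ran from -44.4 to 15.5 with 1 library left out, the cumulus genes from -1.10 to 0.28 and the sperm markers from -0.79 to 0.50, while the oocyte genes stayed lower on HFD. Depth limits Krt19 in morula and Sfn and Cldn6 in sperm, which had too few counts for a test.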
